A study of Mus musculus with 9 samples.

Results

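The 52 genes described here encode developmental transcription factors and lie outside the Hox clusters. They were chosen by name and comprise 7 Pax, 6 Sox and 7 Lhx genes, Six2, Six3 and Six6, 4 Nkx, 5 Fox, 4 Tbx and 2 Gata genes, 10 further homeobox genes (Gsc, Otx1, Otx2, Dlx1, Dlx2, Dlx5, Dlx6, Msx1, Msx2 and Isl1), the bHLH genes Olig2, Neurog1 and Neurod1, and Wt1. All 52 were found among 20665 autosomal protein-coding genes of the GRCm38.p6 annotation. Methylation of CpGs was read from whole-genome bisulfite sequencing, in which unmethylated cytosines are converted and methylated ones are not. The cells were bulk splenic B cells, purified by magnetic depletion of other cells from mice with 0, 1 or 2 copies of a Kmt2d point mutation, Ile5482Asn (WT, HET and HOM), at position 98835228 of chromosome 15. Kmt2d encodes an enzyme that methylates lysine 4 of histone H3, and the series asks how that mark relates to methylation at the borders of CpG islands. The sources used here name no strain, sex or age.

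The labels describe 2 B cell samples per genotype, and the table holds 1 pair of count columns per genotype, here termed a library, and differences between genotypes therefore have no replicate check. The sources used here do not say which sample a column holds or whether it pools both, and blood samples of the series were not analysed here. ENU, a chemical mutagen, stands in the column names of HET and HOM and not in that of WT, so that genotype, any treatment the label stands for and library cannot be told apart. Depth was 9.18 reads per CpG in WT, 12.9 in HET and 9.85 in HOM. Away from islands (more than 4000 bp), the level was 81.6%, 80.9% and 78.1%, so HOM lay 3.44 percentage points below WT before any gene was considered. At the CpG-richer gene ends of 6 B cell marker genes the median level was 51.1%, 40.6% and 45.0% in WT, HET and HOM, ranging from 14.4% to 92.2%, and at those of 6 T cell markers it was 52.8%, 64.8% and 54.1%, ranging from 15.5% to 77.0%. Medians over 3 NK cell markers were 83.2%, 67.2% and 86.1%, and over 4 myeloid markers 80.4%, 78.2% and 75.7%. The T cell median was thus highest in HET, and the NK cell median lowest. The part of cell composition in the differences below was not tested.

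Genes of this kind direct the formation of organs and cell types in the embryo and are silent in most adult cells, B cells included. In many tissues they are kept silent by Polycomb proteins and histone H3 lysine 27 methylation rather than by DNA methylation of their CpG islands, and they lie in broad low-methylated domains sometimes called methylation valleys or canyons. Their islands are also known as frequent sites of gain of DNA methylation in cancer.

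The start regions of 5 members show the sequences behind the levels. RefSeq start regions on GRCm38.p6 were matched for 37 of the 52 members (49 starts, the other 15 members were not matched), and the 250 bases upstream of a start are printed 5′ to 3′ with CpGs in capitals. Isl1 and Nkx6-1 stand for CpG-rich starts with little methylation, Lhx8 for a CpG-poor start with little methylation, Pax8 for the start with the highest level, and Lhx2 for the gene end that differed in HET. The regions are chr13:116309689-116309938 for Isl1, chr5:101664712-101664961 for Nkx6-1, chr3:154330561-154330810 for Lhx8 and chr2:24475600-24475849 for Pax8, all on the minus strand, and chr2:38339031-38339280 for Lhx2 on the plus strand.
Isl1: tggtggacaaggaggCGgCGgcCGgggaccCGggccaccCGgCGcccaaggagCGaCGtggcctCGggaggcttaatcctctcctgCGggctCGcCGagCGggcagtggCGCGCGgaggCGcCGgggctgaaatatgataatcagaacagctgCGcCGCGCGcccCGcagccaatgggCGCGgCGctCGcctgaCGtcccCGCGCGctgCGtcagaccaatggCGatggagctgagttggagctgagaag
Nkx6-1: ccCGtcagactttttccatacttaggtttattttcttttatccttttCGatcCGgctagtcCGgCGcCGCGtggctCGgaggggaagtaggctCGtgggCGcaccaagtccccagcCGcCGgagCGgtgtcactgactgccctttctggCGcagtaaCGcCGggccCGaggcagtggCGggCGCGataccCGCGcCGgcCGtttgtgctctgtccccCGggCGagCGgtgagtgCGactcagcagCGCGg
Lhx8: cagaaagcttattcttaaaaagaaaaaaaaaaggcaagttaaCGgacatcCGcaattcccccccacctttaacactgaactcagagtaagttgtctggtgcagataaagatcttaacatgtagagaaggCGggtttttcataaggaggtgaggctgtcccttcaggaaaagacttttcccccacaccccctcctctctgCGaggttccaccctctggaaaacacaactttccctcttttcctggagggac
Pax8: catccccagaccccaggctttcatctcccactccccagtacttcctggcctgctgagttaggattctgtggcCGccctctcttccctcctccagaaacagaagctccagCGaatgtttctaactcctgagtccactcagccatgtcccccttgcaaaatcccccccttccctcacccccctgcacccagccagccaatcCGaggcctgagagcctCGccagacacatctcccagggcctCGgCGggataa
Lhx2: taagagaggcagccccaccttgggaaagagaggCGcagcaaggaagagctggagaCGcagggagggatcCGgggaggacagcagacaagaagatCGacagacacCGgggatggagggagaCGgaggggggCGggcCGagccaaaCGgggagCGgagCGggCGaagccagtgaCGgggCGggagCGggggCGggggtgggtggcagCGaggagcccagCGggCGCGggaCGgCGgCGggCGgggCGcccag

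Isl1, a LIM homeobox factor of motor neurons, pancreas and heart progenitors, has 33 CpGs in this stretch, and they were methylated to 2.07%, 1.28% and 0.928% in WT, HET and HOM (338, 391 and 431 CpG reads). Nkx6-1, a factor of motor neurons and pancreatic beta cells, has 30 CpGs and showed 0.826%, 1.69% and 0.289%. Lhx8, a LIM homeobox factor of the forebrain and oocytes, has 4 CpGs and showed 9.59%, 5.26% and 3.06% (73, 95 and 98 reads). Pax8, a paired-box factor of thyroid and kidney, has 6 CpGs and showed 64.4%, 54.5% and 47.0% (87, 110 and 100 reads). At Lhx2, a LIM homeobox factor of forebrain and eye, the 25 CpGs showed 0%, 4.44% and 10.5% on 14, 45 and 19 reads, too few to compare libraries. The printed Lhx2 bases alone thus do not show the higher HET level of that gene end. Over all 49 starts the median was 2.07%, 3.4% and 2.27%, which is above the 0.667%, 0.673% and 0.629% of 15045 starts of all genes, and Pax8 was the only start above 50% in WT or HET. Of 11 starts with 4 to 8 CpGs and at least 10 reads in every library, 10 were below 20% in each library, the exception being Pax8. Of 3378 such starts over all genes, 47.1% were below 20% in WT.

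Most gene ends of the list were nearly free of methylation in all 3 libraries. The gene-end window is the CpG-richer end of the gene, from 1000 bp outside to 500 bp inside; it holds a matched start for 26 of the 37 genes with one. The level, methylated over covering CpG reads, had medians of 4.65%, 5.43% and 4.41% in WT, HET and HOM over the 52 windows, against 15.2%, 15.7% and 13.8% over the 19279 genes with enough CpGs and reads (3 and 30 per library). It was below 10% in 43, 43 and 45 windows, a share of 82.7% in WT, where 40.7% of all genes were below 10%. The lowest level in WT was that of Foxf1, a forkhead factor of visceral mesoderm, with 1.04% (95% Wilson interval 0.566 to 1.90; HET 0.794%, HOM 0.758%), followed by Nkx6-1 with 1.70% and the forebrain factor Otx1 with 1.88%. The highest was that of Gata4, a zinc-finger factor of heart and endoderm, with 86.7%, 88.1% and 83.5%, then Pax8 with 66.0%, 61.0% and 48.7% and Sox17, an endoderm and endothelial factor, with 20.8%, 17.4% and 16.2%. The Gata4 window has 17 CpGs and holds no island, while the 5 islands inside the gene were between 3.48% and 6.79% in WT. Intervals here and below cover counting error only and count linked CpGs of 1 read separately, which makes them too narrow.

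**Figure D1:**
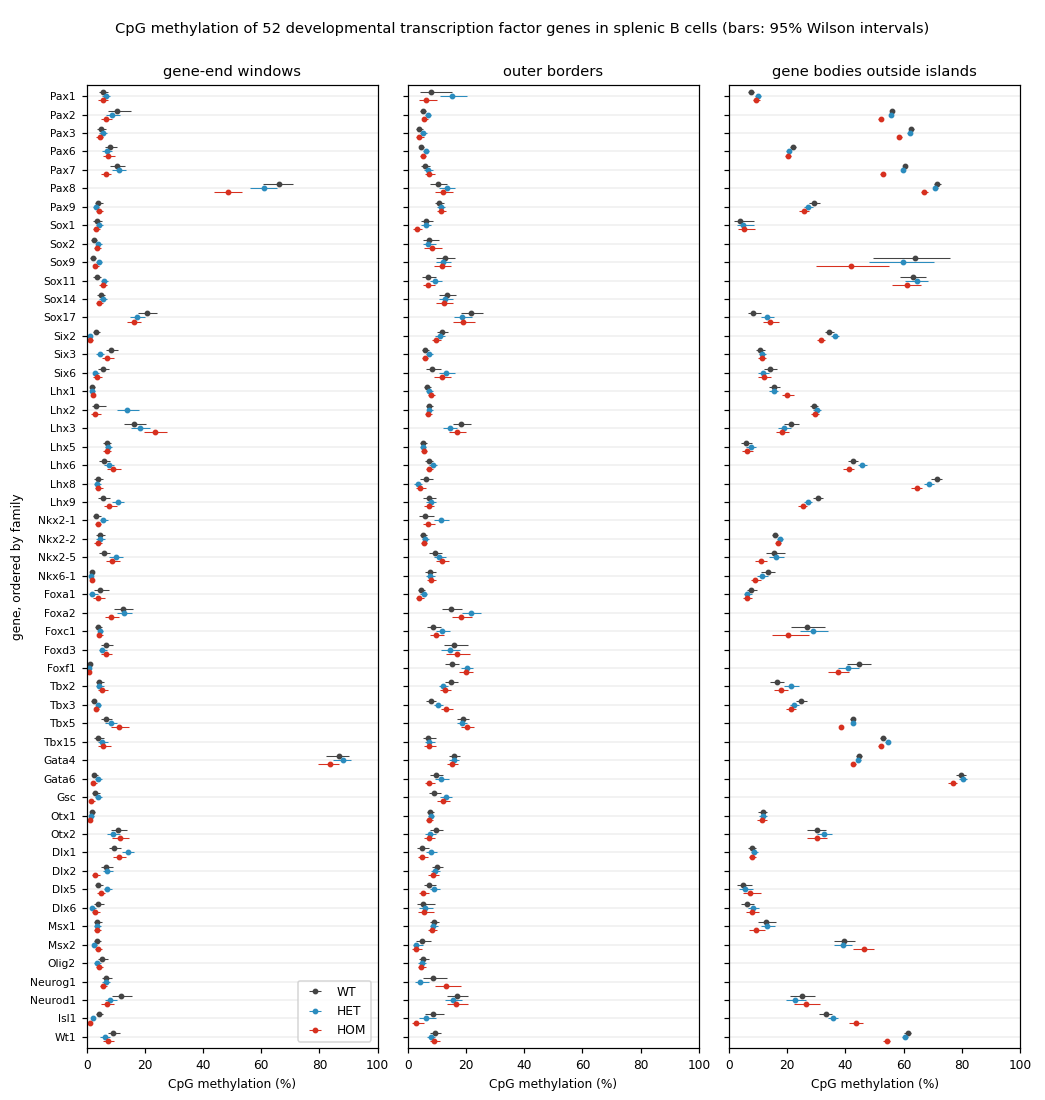
CpG methylation (percent, x axis) of each of the 52 genes (y axis, by family) in WT, HET and HOM, in gene-end windows, outer borders of CpG islands and gene bodies outside islands; points are levels over summed reads and bars 95% Wilson intervals. Most gene ends and borders sit below 20%, Gata4 and Pax8 stand apart at gene ends, and bodies range from 3.82% to 79.6% in WT.

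The CpG islands of these genes shared this state. The members hold 144 islands over their spans and 2000 bp on each side, with a median of 2.5 per gene and up to 8 at Pax6, the eye and forebrain regulator. In 142 of them the island core (CpGs more than 200 bp inside its edges, or the whole island where it has none) was below 20%, and none was above 80%. Over all genes 79.2% of islands were below 20%, 4.32% between and 8.54% above 80%. The rest lacked a core level in some library yet count in these shares, which are therefore lower than among islands with a level. The other 2 islands of the members were one of 1003 bp outside Foxc1, a forkhead factor of eye and mesoderm, with 27.9%, 29.7% and 23.7%, and one of 228 bp inside Gata6, an endoderm and heart factor, with 26.0%, 30.9% and 22.0%. Summed over the 142, methylation came to 3.88%, 3.83% and 3.34% in WT, HET and HOM. HOM minus WT was -0.542 points (-0.706 to -0.378), and HET minus WT was -0.0497 (-0.214 to 0.113). The 13669 other islands with such cores had 1.80%, 1.65% and 1.5%, which is below the level of the listed genes' islands in every library. Their HOM level was 0.832 times that of WT, and that of the listed genes' islands 0.860 times. Islands of the listed genes were thus low, and above the sum of the other unmethylated islands.

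The low level extended far beyond the islands. A low-methylated stretch was defined as a run of at least 10 CpGs whose running level over 11 CpGs, in the summed counts of the libraries, was below 30%. The longest stretch touching each listed gene had a median length of 11120.5 bp, and 50 of 52 reached 3500 bp, against a median of 1186 bp and 4.69% of all genes. At least 10000 bp were reached by 28 members and by 0.537% of all genes. The longest was at Pax6 with 31058 bp, followed by 28917 bp over Dlx5 and Dlx6 and 21790 bp over Dlx1 and Dlx2, paired distal-less genes of limb, face and forebrain that share a stretch. The shortest were those of Neurod1, a neuronal and endocrine bHLH factor, with 2417 bp, Pax8 with 3322 bp, the sensory neuron factor Neurog1 with 3906 bp, Isl1 with 4238 bp and Lhx6, a factor of cortical interneurons, with 4687 bp. Within the stretches the median level was 7.21%, 7.10% and 6.54% in WT, HET and HOM for the members, and 4.12%, 3.99% and 3.79% for the 970 genes with a stretch of at least 3500 bp.

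Lengths found separately in each library had medians over the members of 10346 bp (WT), 10604.5 bp (HET) and 10693.5 bp (HOM). The HOM stretch was longer than that of WT at 27 genes and shorter at 24, with a median difference of 13 bp. Over all genes it was longer at 9199 and shorter at 4465, with a median of 38 bp. Over the 970 genes with a stretch of at least 3500 bp, nearer the members in length, it was longer at 529 and shorter at 392. Their median difference was 24 bp. Sox1, a neural progenitor factor, had 20788, 20744 and 20737 bp in WT, HET and HOM, which is nearly the same length in each. At single genes a stretch was split in 1 library or joined to a neighbour: the Dlx1 and Dlx2 stretch had 23099, 12074 and 21739 bp in WT, HET and HOM, that of Foxd3, a neural crest factor, 7962, 13827 and 13817 bp, and that of Otx1 5914, 5923 and 12490 bp. These splits lay in HET for Dlx1 and Dlx2 and in WT for Foxd3, and the joining in HOM for Otx1. Shorter stretches in HOM were also found, as at Pax2 with 16114, 15841 and 8009 bp and at Msx2 with 6368, 6372 and 2984 bp.

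**Figure D2:**
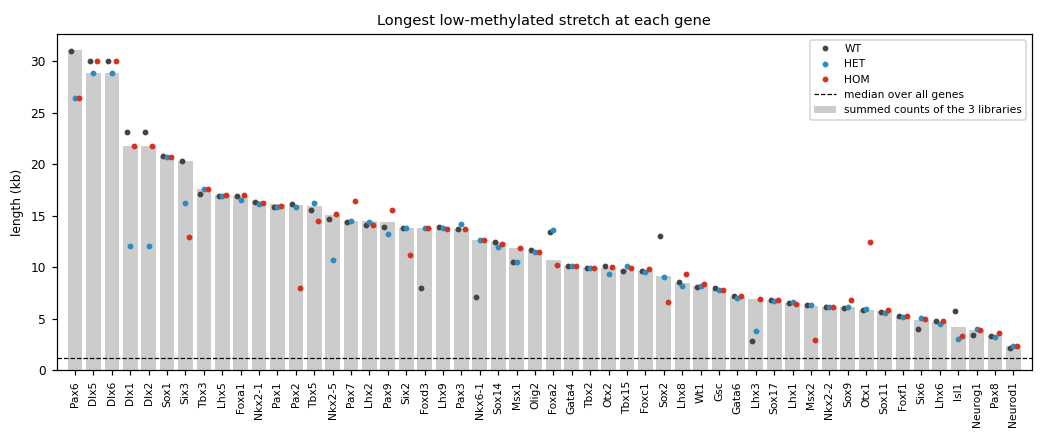
Length in kb (y axis) of the longest low-methylated stretch at each listed gene (x axis, from longest to shortest); grey bars are from the summed counts, points from WT, HET and HOM alone, and the dashed line is the median over all genes. All 52 bars stand above the dashed line, from 2417 bp at Neurod1 to 31058 bp at Pax6.

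In gene-end windows, Pax8 was the listed gene that differed most between HOM and WT, and differences of a few points were seen at others. A gene was called where a library differed by at least 10 points and the two-sided p of Fisher's exact test on read counts was below 0.05 after Benjamini-Hochberg adjustment over all genes tested; the test compares libraries, not genotypes. No listed gene was called higher in HOM than in WT, where 1.05% of all genes were, and 1 was called lower, where 3.67% were. A window below 10% in WT cannot be called lower in HOM or HET. That held for 43 of 52 members and 40.7% of all genes, so these shares are not alike in level. In windows with a mean level below 5%, the median HOM minus WT was -0.203 over 28 members and -0.175 over 5199 genes. From 5% to 10% it was -0.540 over 17 members and -0.749 over 2776 genes. By the 95% Newcombe interval of the difference, 4 listed genes were higher (6.45% of all genes) and 9 lower (20.6%). The median difference was -0.275 points, against -0.780 over all genes, and the difference over summed reads -0.399 (-0.732 to -0.0678), with members from -17.4 to 7.13. With levels scaled to equal methylation away from islands it was -0.150 (-0.484 to 0.181), an interval that includes 0. The gene called was Pax8, with 66.0% in WT (60.5 to 71.1, 306 reads), 61.0% in HET (56.2 to 65.6, 410 reads) and 48.7% in HOM (43.8 to 53.5, 409 reads). HOM was the lowest library, and its interval did not overlap those of the others. HOM minus WT was -17.4 points (-24.4 to -10.1, adjusted p = 0.000214, Fisher's exact test). It was not called when counts were divided by the number of CpGs within 150 bp, where 3 of 17116 windows of all genes were. Pax8 spans chromosome 2, 24420551 to 24475599, and a lncRNA, Gm13415, overlaps it.

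Of the 7 Pax windows, 6 had a HOM level below WT, 3 of them with an interval below 0; over all genes 64.7% were below WT and 20.6% had such an interval. Pax7, a muscle stem cell and neural crest factor, had 10.3%, 11% and 6.51% (HOM minus WT -3.80, -6.91 to -0.862), and the kidney and midbrain factor Pax2 10.5%, 8.85% and 6.54% (-4.01, -8.86 to -0.0490). Pax1, Pax3, Pax6 and Pax9, factors of sclerotome, neural crest, eye and pharyngeal pouches, differed by between -0.621 and 0.271 points.

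The windows of Six2, Six3 and Six6, which act in eye, forebrain and kidney, had levels below WT in both mutant libraries. In WT, HET and HOM, Six2 had 3.24%, 1.13% and 1.15% (863, 1234 and 957 reads). Six3 had 8.45%, 4.42% and 6.98%, and Six6 5.45%, 2.97% and 3.50%. HET lay below WT at each of the 3 with an interval below 0, which 11.3% of all genes had. The mean of the 3 differences was -2.88 points (-4.10 to -1.65). HOM minus WT had a mean of -1.84 (-3.20 to -0.486). Both differences rest on the same WT library. The matched starts of Six3 and Six6 lie outside their windows, and Six6 went the other way at its start. In WT, HET and HOM the Six6 start had 0%, 4.11% and 1.05% (HET minus WT 4.11, 1.58 to 7.04). The Six3 start had 13.3%, 1.47% and 4.82%.

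The Sox windows were split in HOM minus WT, with 3 of 6 below 0, while the HET level was above WT at all but 1 (3 intervals above 0) and the HOM level below HET at all 6 (0 intervals below 0). Over all genes 64.7% were below WT in HOM, 49.3% above WT in HET (11% by the interval) and 65.3% below HET in HOM. Sox17 was lower in HOM (HOM minus WT -4.63, -8.73 to -0.647), and Sox11, a factor of immature neurons, was higher with 3.39%, 6.06% and 5.54% (HOM minus WT 2.16, 0.146 to 4.04; HET minus WT 2.67, 0.704 to 4.45). Sox1 had 3.49%, 4.26% and 3.23%, and Sox14, a factor of spinal and brain interneurons, 4.78%, 5.49% and 4.17%.

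The Tbx genes, limb, heart and mesoderm factors, had means on the other side. HOM minus WT averaged 2.12 points over the 4 (0.770 to 3.47) and HET minus WT 1.22 (0.0997 to 2.34). The highest HOM difference was at the forelimb and heart gene Tbx5, with 6.52%, 8.20% and 11.1% (HOM minus WT 4.59, 1.0 to 8.52). Tbx15 had 3.85%, 5.36% and 5.73%, Tbx3 2.37%, 4.05% and 3.25%, and Tbx2 4.31%, 4.31% and 5.44%.

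Among the Lhx genes the highest difference was that of Lhx2 in HET. Its window had 3.38% in WT (1.72 to 6.52, 237 reads), 13.8% in HET (10.5 to 18.0, 325 reads) and 2.84% in HOM (1.59 to 5, 388 reads). HET stood alone above WT and HOM. It was the only listed window called higher in HET than in WT (10.5 points, 5.89 to 15, adjusted p = 0.000759, Fisher's exact test), where 1.46% of all genes were called higher, and none was called lower, where 1.29% were. The call was lost with counts divided by linked CpGs, with averaged levels of single CpGs and with a window of 500 bp outside. With counts so divided, 3 of 17116 windows of all genes were called in HET against WT. The motor neuron and pituitary gene Lhx3 had 16.2%, 18.4% and 23.3% (HOM minus WT 7.13, 1.57 to 12.5), the highest HOM difference in the list, and Lhx6 5.96%, 7.52% and 9.11% (3.15, 0.199 to 6.23). Lhx9, a gonad and limb factor, had 5.69%, 10.7% and 7.84% (HET minus WT 4.97, 1.89 to 7.82). Lhx1, Lhx5 and Lhx8 differed from WT by at most 0.491 points in either library.

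By the interval, HET was higher than WT at 10 of 52 windows and lower at 5, beside 11% and 11.3% of all genes. The 10 were Sox2, Sox9, Sox11, Lhx2, Lhx9, Nkx2-1, Nkx2-5, Tbx3, Dlx1 and Dlx5, and the 5 Six2, Six3, Six6, Isl1 and Wt1. Nkx2-1 had 3.38%, 5.78% and 3.85%, Nkx2-2, of ventral spinal cord and pancreas, 4.52%, 4.66% and 3.78%, and Dlx5 4.01%, 7.14% and 4.87%. Nkx2-5, the early heart factor, had 5.79%, 9.97% and 8.81%, and Dlx1 9.48%, 14.1% and 11.2%. Sox2, the pluripotency and neural factor, had 2.43%, 4.03% and 3.60%, and Sox9, the cartilage and testis factor, 2.07%, 4.08% and 3.03%. The kidney and gonad gene Wt1 had 9.14%, 6.14% and 7.18%. Over summed reads HET minus WT was 0.219 (-0.109 to 0.544) for the members and 0.288 for all genes. The median was 0.215 over the members and -0.0228 over all genes.

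Directly between the mutant libraries, Pax8 and Lhx2 were called lower in HOM than in HET (-12.3, adjusted p = 0.00692, and -11, adjusted p = 4.32e-06, Fisher's exact test), where 3.08% of all genes were lower, and none higher, where 0.773% were. Both calls were lost with counts divided by linked CpGs and with a window of 500 bp outside, and that of Lhx2 also with averaged levels of single CpGs. With counts so divided, 0 of 17116 windows of all genes were called in HOM against HET. The bHLH genes had lower means in both mutant libraries: Neurod1 had 11.7%, 8.16% and 6.96% (HOM minus WT -4.79, -8.96 to -0.912), Olig2, of oligodendrocytes and motor neurons, had 5.38%, 3.47% and 4.15%, and Neurog1 6.74%, 6.62% and 5.64%. Foxa2, an endoderm pioneer factor, had 12.4%, 12.9% and 8.42%, and Foxd3 6.57%, 5.35% and 6.69%. Foxa1, also an endoderm pioneer factor, had 4.51%, 1.80% and 3.78%, and Foxc1 3.95%, 4.68% and 4.41%. Gata6 had 2.66%, 3.97% and 2.22%, and the brain factor Otx2 10.9%, 9.11% and 11.3%. Dlx2 had 6.75%, 7.05% and 2.99%, and the organizer gene Gsc 2.76%, 3.89% and 1.58%. Msx1 and Msx2, of limb and cranial development, lay between 2.65% and 3.77% in every library.

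**Figure D3:**
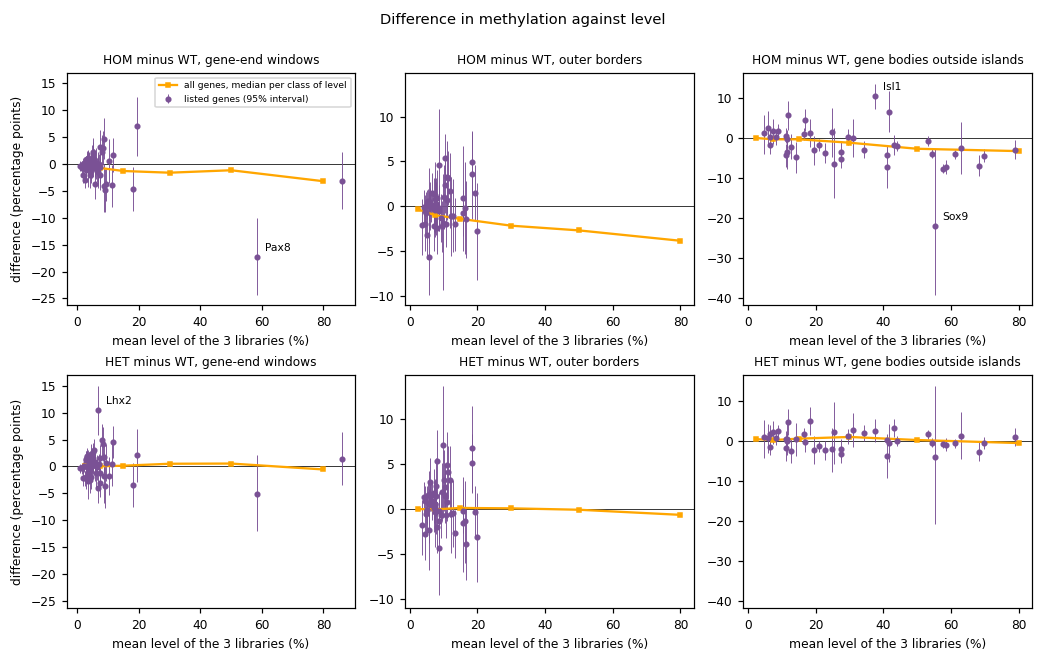
Difference in methylation (percentage points, y axis) of HOM minus WT (top) and HET minus WT (bottom) against the mean level of the 3 libraries (percent, x axis) in the 3 region classes; points are the listed genes with 95% Newcombe intervals, named where called, and squares the median of all genes in each class of level. Pax8, Lhx2, Isl1 and Sox9 stand apart, and at borders between 10% and 20% the HOM points lie around 0 where the median of all genes is below it.

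Borders of the listed genes' islands were low, and their HOM minus WT difference in sum changed sign between settings. The outer border is the 500 bp outside each island whose core is below 20%. Its median over the 52 genes was 7.92%, 8.66% and 7.65% in WT, HET and HOM, against 11.4%, 11.4% and 10.3% over 12612 genes. Of the members' border CpGs 96.8% lay inside a low-methylated stretch, against 77.7% for all genes. HOM minus WT was 0.142 over summed reads (-0.234 to 0.518), with a median of 0.0177 over the members and -0.840 over all genes, and the value depended on the setting. It was -0.257 (-0.711 to 0.196) with islands over 500 bp, -0.0241 with borders of 1000 bp and -0.0785 as a mean of CpG levels. It was 0.533 (0.156 to 0.909) with levels scaled to equal methylation away from islands and 0.636 (0.0900 to 1.18) with borders of 200 bp. No listed border was called in any comparison: in HOM against WT 0.658% of all genes were called higher and 2.71% lower, in HET against WT 0.936% each way, and in HOM against HET 0.357% and 2.25%. Borders below 10% in WT cannot be called lower than WT, and these were 38 of 52 members and 45.4% of all genes. By the interval, 3 listed borders were higher in HOM than in WT (4.64% of all genes) and 2 lower (15.9%).

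Borders of all genes were also read at the same level as those of the list. For borders with a mean level between 10% and 20%, HOM minus WT was 0.954 over the 19 members (0.164 to 1.74) and -1.24 over 3186 genes (-1.33 to -1.15), and between 5% and 10% it was -0.115 over 28 members (-0.548 to 0.316) and -0.911 over 2468 genes. The intervals of the list and of all genes do not overlap in either of these classes. They do overlap below 5%, where HOM minus WT was -0.739 over 5 members (-1.71 to 0.223) and -0.459 over 3383 genes (-0.496 to -0.422). The members' HOM level over their borders was 1.02 times that of WT, and that of all genes 0.923 times. Against HET, the listed borders were lower in HOM, by -0.551 over summed reads (-0.902 to -0.199), beside -1.23 for all genes. Between 5% and 10% HOM minus HET was -0.790 (-1.19 to -0.383) for members and -0.853 for all genes, which is alike. Between 10% and 20% it was 0.139 (-0.595 to 0.877) for members and -1.35 for all genes. The part of the higher share of border CpGs inside low-methylated stretches in these differences was not tested.

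Tbx3, a limb and mammary factor, had the highest HOM difference among the borders. Its 76 border CpGs had 7.85% in WT (6.27 to 9.78, 905 reads), 10.3% in HET (8.81 to 12.1, 1347 reads) and 13.3% in HOM (11.4 to 15.4, 1124 reads). HOM was higher than WT by 5.41 points (2.73 to 8.04, adjusted p = 0.00521, Fisher's exact test), short of the 10 points of a call. Foxf1 had 15.1%, 20.2% and 20.02% and was higher in both mutant libraries (HOM minus WT 4.93, 1.46 to 8.33; HET minus WT 5.08, 1.75 to 8.28), as was Gsc with 9.01%, 13.1% and 12.2%. Neurog1 had 8.56%, 4.20% and 13.2% on 187, 262 and 212 reads, with an interval of HOM minus WT from -1.61 to 10.8. Isl1 had 8.49% (5.72 to 12.4), 6.14% (3.92 to 9.5) and 2.8% (1.36 to 5.67), lower in HOM by 5.69 points (difference -5.69, -9.87 to -1.70, adjusted p = 0.0878, Fisher's exact test). Sox1 had 6.16%, 6.08% and 3.01%.

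HET borders of the members were above WT in sum. HET minus WT was 0.694 over summed reads (0.330 to 1.05), with a median of 0.436 over the members and -0.00693 over all genes, and 9 borders were higher by the interval (7.96% of all genes) and 3 lower (9.01%). Foxa2 had 14.8% in WT, 21.6% in HET and 18.4% in HOM (HET minus WT 6.82, 1.90 to 11.5), and Nkx2-1, of thyroid, lung and ventral forebrain, 5.88%, 11.2% and 6.84% (5.34, 1.47 to 8.82). Six6 had 8.35%, 13.3% and 11.6%, and Pax1 8%, 15.1% and 6.14% on 100, 219 and 228 reads, with an interval of HET minus WT from -1.06 to 13.7. Each of the 7 Pax borders had a HET level above WT, 2 of them with an interval above 0, and the mean of the 7 differences was 2.35 (1.03 to 3.67). Over all genes 49.6% of borders were above WT in HET, and 7.96% by the interval. The Fox borders averaged 2.89 (1.15 to 4.63) in HET and 1.98 (0.125 to 3.84) in HOM, from the same WT library. Lower in HET were Lhx3 with 18.3%, 14.4% and 16.9%, Lhx8 with 6.14%, 3.34% and 4.11%, and Tbx2 with 14.9%, 12.2% and 12.9%. Sox17 had the highest border in WT, with 21.8%, 18.7% and 19.0%, followed by Tbx5 with 18.8%, 18.5% and 20.3%; the lowest were Pax3 with 3.87%, 5.18% and 3.78%, Foxa1 with 4.49%, 5.38% and 3.98%, and Pax6 with 4.57%, 6.13% and 5.19%.

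Around the edges of the stretches the members and other genes could be set side by side. Stretches of at least 3500 bp were taken from the HET library alone and read in WT and HOM, so that the libraries compared did not place the edge. In the 500 bp outside the edge the 48 members' stretches had 34.1% in WT and 34.3% in HOM (HOM minus WT 0.247, -1.33 to 1.82), and 768 stretches of other genes 45.1% and 43.6% (-1.48, -1.89 to -1.07). The intervals of the members and of the other genes overlap in part, and the difference between the sets was not tested. From 500 to 2000 bp outside, HOM was lower at both, by 2.16 points for members (difference -2.16, -2.96 to -1.36) and 2.71 for other genes (difference -2.71, -2.96 to -2.47). In the 500 bp inside the edge it was lower by 1.09 (difference -1.09, -1.82 to -0.356) and 0.472 (difference -0.472, -0.618 to -0.326). With edges from HOM, HET minus WT in the 500 bp outside was 1.17 for the members (-0.429 to 2.76) and -0.177 for other genes (-0.564 to 0.209). With edges from WT, HOM minus HET there was -2.30 for the members (-3.85 to -0.738) and -1.94 for other genes (-2.31 to -1.57). In that comparison HOM was lower at both sets by similar amounts. The flanks of the members' stretches were far less methylated than those of other genes: between 1000 and 1250 bp outside the edge WT had 42.0% against 60.8%.

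**Figure D4:**
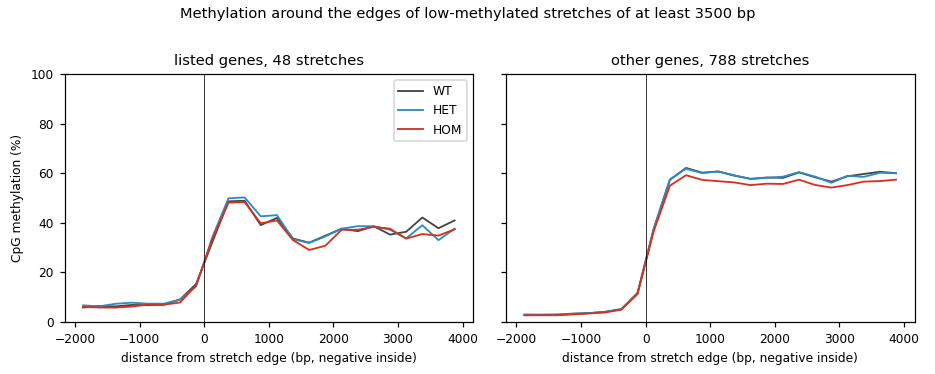
CpG methylation (percent, y axis) in bins of 250 bp against distance from the edge of low-methylated stretches of at least 3500 bp (x axis, bp, negative inside) in WT, HET and HOM, for stretches of listed genes (left) and other genes (right), with edges from the summed counts. Outside the edge the other genes reach 60.8% in WT at 1000 to 1250 bp and the listed genes 42.0%, and inside the edge the listed genes stay above the other genes.

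Gene bodies split the list by level. The body was measured more than 500 bp inside both gene ends and outside islands and their borders. It could be compared for 43 members: Nkx2-1, Gsc, Neurog1, Olig2, Dlx2, Foxa2, Foxd3 and Sox14 have no such CpG and Sox2 has 2. The median body had 26.7%, 27.1% and 25.3% in WT, HET and HOM, against 83.6%, 82.9% and 80.2% over 17982 genes, and 33 of 43 were below 50% in WT, where 3.30% of all genes were. The lowest were Sox1 with 3.82%, 4.74% and 5.24%, Dlx5 with 4.69%, 5.38% and 7.25% and Lhx5 with 5.74%, 7.44% and 6.11%. The highest were Gata6 with 79.6%, 80.6% and 76.8%, Pax8 with 71.5%, 70.9% and 67.1% and Lhx8 with 71.4%, 68.7% and 64.6%.

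HOM bodies of the list were lower than WT in sum, and those with more methylation by more. HOM minus WT was -3.01 over summed reads (-3.37 to -2.65), with a median of -1.86 over the members and -3.17 over all genes, and it was -1.15 with levels scaled to equal methylation away from islands. Among the 10 members between 40% and 60% it was -3.99 (-4.49 to -3.49), where 616 genes of that class had -2.15 (-2.29 to -2.01). Among the 11 between 10% and 20% it was 0.262 (-0.549 to 1.07). By the interval, 18 of 43 bodies were lower in HOM, where 64.8% of all genes were, and 5 higher, where 2.04% were. Listed bodies have lower levels and fewer CpGs (median 120 against 205 over all genes), so these shares are not alike in level or reads. Over summed reads of all genes HOM minus WT was -3.27. The HOM level was 0.933 times that of WT for the members and 0.960 times for all genes. The call found 1 member lower, where 2.25% of all genes were, and 1 higher, where 0.2% were.

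The lower bodies included 6 of 7 Pax genes. Pax7 had 60.4% in WT, 59.7% in HET and 52.8% in HOM on 13947, 20906 and 14965 reads (HOM minus WT -7.59, -8.73 to -6.45), and HOM stood alone below the others. Wt1 had 61.4%, 60.4% and 54.2% (-7.14, -8.89 to -5.37), Foxf1 44.7%, 40.9% and 37.6% (-7.08, -12.5 to -1.61) and Lhx8 differed by -6.87 (-9.5 to -4.22). Pax2, Pax3, Pax8, Pax9 and Tbx5 differed by between -4.38 and -3.47 points, each with an interval below 0. The member called lower was Sox9, with 63.8% in WT (49.5 to 76.0, 47 reads), 59.7% in HET (48.2 to 70.3, 72 reads) and 41.8% in HOM (29.7 to 55.0, 55 reads). Its 9 body CpGs gave HOM minus WT -22.0 (-39.2 to -2.59, adjusted p = 0.0484, Fisher's exact test); the intervals of WT and HOM overlap, and it was not called with levels scaled to equal methylation away from islands or with a minimum of 100 reads.

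Isl1 went the other way. Its body, 160 CpGs within chromosome 13, 116298270 to 116309688, had 33.2% in WT (31.0 to 35.5, 1723 reads), 35.7% in HET (34.0 to 37.5, 2782 reads) and 43.7% in HOM (41.4 to 46.0, 1710 reads). HOM stood above both other libraries without overlap of the intervals. The difference from WT was 10.5 points (7.24 to 13.7, adjusted p = 2.22e-09, Fisher's exact test) and from HET 7.95 (5.01 to 10.9). It was the only listed body called higher in HOM than in WT, and the only member of any region class still called when counts were divided by the number of CpGs within 150 bp. Over all genes, that division left 190 of 17595 bodies, 3 of 17116 windows and 2 of 12111 borders called in HOM against WT. Few windows or borders of any gene were called there, so the contrast between region classes is not particular to Isl1. The Isl1 body was not called when the levels of single CpGs were averaged, when 2000 bp around islands were left out or when the whole span was read. At the start of the same gene HOM was lowest: the gene-end window had 4.24% in WT (3.17 to 5.64), 2.08% in HET (1.46 to 2.95) and 1.17% in HOM (0.734 to 1.87), and HOM minus WT was -3.06 (-4.54 to -1.79, adjusted p = 0.000114, Fisher's exact test). The CpG island across that end, 82 CpGs, had 3.36%, 1.47% and 0.962%.

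Other bodies above WT in HOM were Msx2 with 39.6%, 39.0% and 46.2% (6.66, 1.5 to 11.8), Sox17 with 8.38%, 13.1% and 14.1% (5.77, 2.11 to 9.37), the kidney and head factor Lhx1 with 15.6%, 15.3% and 20.1% (4.47, 1.71 to 7.22) and Pax1 with 7.43%, 9.88% and 9.37% (1.94, 0.281 to 3.56). In HET against WT no listed body was called, where 0.339% of all genes were called higher and 0.567% lower; 7 were higher by the interval (8.27%) and 3 lower (22.6%). Those higher were Pax1, Sox17, Six2, Lhx6, Nkx2-2, Tbx2 and Tbx15, led by Tbx2, with 16.4%, 21.3% and 17.7% (4.98, 1.48 to 8.40). Those lower were Lhx8, Lhx9 and Tbx3, and Lhx9 had 30.5%, 27.1% and 25.3%. HET minus WT over summed reads was 0.250 (-0.0909 to 0.591), against -0.601 over all genes. The median was 0.0791 over the members and -0.538 over all genes. In HOM against HET no listed body was called either, where 0.184% of all genes were called higher and 1.63% lower.

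Tiles of 1 kb placed these differences within 4 genes that were chosen after their values were seen. Along Isl1 the tile at 116302270 to 116303269 had 58.3%, 62.6% and 71.2% in WT, HET and HOM (HOM minus WT 12.9, 4.03 to 21.6), the next 46.4%, 49.1% and 55.0%, and the tile at the end far from the start 29.4%, 36.0% and 41.4%, so that HOM exceeded WT at several places of the body. At 116306270 to 116307269 HET was highest, with 27.7%, 50% and 38.7% (HET minus WT 22.3, 11.4 to 32.3). In Lhx2 the higher HET level lay outside the gene, in the tile before its left end, with 9.52%, 25.6% and 10% on 84, 164 and 110 reads, while the island across that end was at most 1.38% in each library. In Tbx3 the tile at 119682534 to 119683533 near the right end had 4.70%, 5.39% and 13.6% on 574, 686 and 623 reads, and HOM exceeded WT by 8.94 points there (5.73 to 12.2). Along Pax8 the methylated start was followed inside the gene by its only island, 36 CpGs with 5.14%, 3.90% and 5.65%, in a stretch of 3322 bp.

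**Figure D5:**
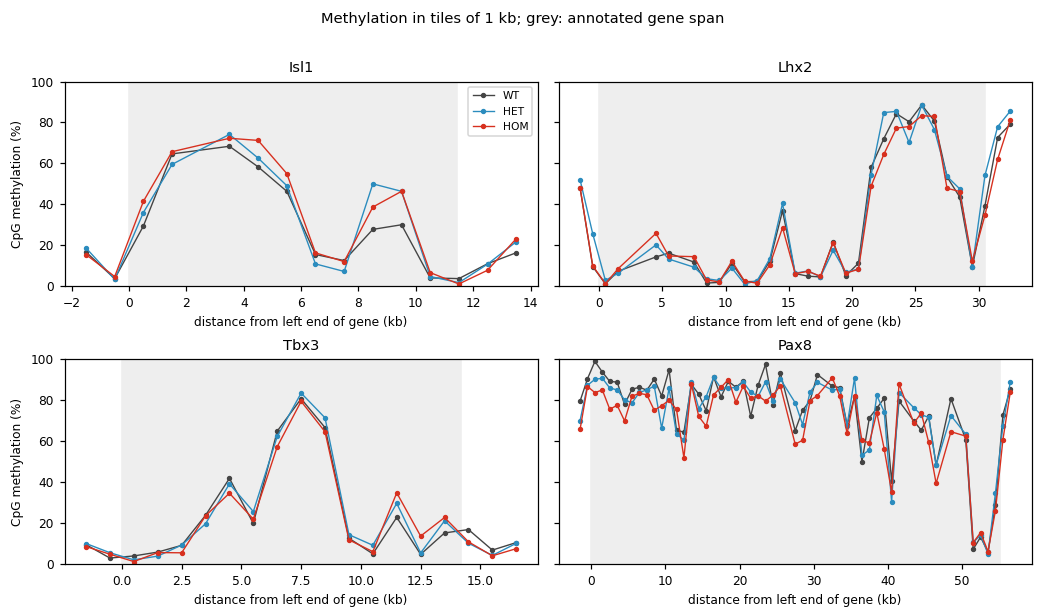
CpG methylation (percent, y axis) in tiles of 1 kb against distance from the left end of the gene (kb, x axis) at Isl1, Lhx2, Tbx3 and Pax8 in WT, HET and HOM; grey marks the annotated span. In Isl1 HOM lies above WT in most tiles of the grey span, in Lhx2 HET is apart just before the left end, and Pax8 is methylated along most of its length.

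Relatives of the listed genes were measured in the same way. Of 60 genes of the same families without a main role in blood, 59 were tested at gene ends, with medians of 8.65%, 8.90% and 8.28% in WT, HET and HOM and a median HOM minus WT of 0.0253. Called higher in HOM was 1, Tbx6, of paraxial mesoderm, with 42.2%, 40.4% and 58.6%, and lower 1, Lhx4, of the pituitary, with 67.7%, 70.9% and 53.4%. Their bodies had a WT median of 68.5% over 42 genes against 26.7% for the listed genes, and a median HOM minus WT of -2.92. Of 10 relatives with a role in blood cells 8 were tested. Foxo1, a factor of B cell development, had 0.0828%, 0.143% and 0.0779% at its gene end, and Pax5, which maintains B cell identity, 9.42%, 4.52% and 4.77%. At the borders of Gata2, of blood progenitors, 41.1%, 28.7% and 30.1% were measured, called lower in both mutant libraries (HOM minus WT -11, -17.1 to -4.92). Foxo1 was the lowest in WT of the 8 gene ends of relatives with a role in blood cells. Their WT levels ran up to 89.2%, with a median of 3.61%, beside 4.65% over the listed genes.

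Single CpGs unmethylated in 1 library alone were also sought. Over the spans and flanks of the members 21230 CpGs had at least 5 reads in every library, and 0 of them were below 10% in 1 library and above 80% in both others. Over the genome 80 of 12909646 such CpGs met this rule for WT, 154 for HET and 440 for HOM, so few that a count of 0 says nothing particular about the listed genes. Other annotated genes overlap 22 of the 52 members, 19 of them with a lncRNA, such as Six3os1 at Six3, Sox2ot at Sox2 and Tbx3os1 at Tbx3, and the methylation of a CpG in an overlap belongs to both genes.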

How the data were processed

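Whole-genome bisulfite libraries of splenic B cells were read from a deposited table of 21875444 CpGs that gives, per the file headers, a count of methylated and of covering reads per CpG and genotype. The submitters' processing notes name mm10 (GRCm38) and 2 groups of tools: Trim Galore 0.2.8, Picard 1.91, Bowtie2 and Bismark in one, MethylDackel, Picard 2.3.0 and BWA 0.7.13 in the other. Which group made the columns, and with what filters, was not stated there. The members and lists were chosen with earlier results of these data known.

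Levels are methylated over covering reads, summed per region (3 CpGs or more, and 30 CpG reads or more per library), with 95% Wilson intervals, and differences have Newcombe intervals. The design held a model over replicate columns; since each genotype has 1 pair of columns, the alternative that the design names for this case was used, which is two-sided Fisher's exact tests adjusted by Benjamini-Hochberg over all autosomal protein-coding genes. Islands were found from CpG positions (a CpG scoring 17 and any other base -1, more than 200 bp, at least 6 CpGs per 100 bp), and an island's core lies more than 200 bp inside its edges; an island with no CpG there was read whole. Intervals of means over genes are normal approximations of counting error. The libraries hold 200824258 (WT), 282430649 (HET) and 215454437 (HOM) CpG reads. Genes were named by a rule: called members, the 3 highest and 3 lowest levels and differences per region class, and the 5 longest and 5 shortest stretches; further members are named to complete their families. Python 3.11.15, NumPy 2.4.6, pandas 2.3.3, numba 0.67.0 and matplotlib 3.10.9 were used, and the calls were tested on simulated data. Other thresholds, windows, border widths, island sizes, scalings and ways of averaging were tried.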

Additional observations from a re-analysis of the deposited data

How the results depend on the processing

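Of 144 values recomputed under alternatives, 99 stayed within the limits set for them and 45 moved. Calls depended most on the settings. A share over all genes is given only for counts divided by the CpGs within 150 bp. The other counts describe the members alone and cannot be set against all genes. With a difference of 20 points for a call, gene-end windows had 0 calls in each comparison and bodies 1 in HOM against WT (Sox9); with 5 points, bodies had 9 in HOM against WT and 5 in HOM against HET, and borders 1 in HOM against WT (Tbx3) and 1 in HOM against HET (Neurog1). With a minimum of 100 reads, bodies had 1 call in HOM against WT (Isl1). With counts divided by the CpGs within 150 bp, windows had 0 calls in each comparison and bodies 1 in HOM against WT (Isl1). Of all genes, 3 of 17116 windows and 190 of 17595 bodies were called in HOM against WT with that division. With the mean of CpG levels, windows had 0 calls in HET against WT and 1 in HOM against HET (Pax8), and bodies 0 in HOM against WT. The window of 500 bp outside had 0 calls in HET against WT and in HOM against HET. The other gene end had 0 in HET against WT and 1 in HOM against HET (Nkx2-2). Bodies had 0 calls in HOM against WT with 2000 bp around islands left out and over the whole span.

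Differences over summed reads moved as follows. Scaled to equal methylation away from islands, bodies had -1.15 in HOM minus WT (1 call, Isl1), 0.612 in HET minus WT and -1.76 in HOM minus HET, and borders 0.533 in HOM minus WT. As means of CpG levels, bodies had -1.17 and -1.46 in HOM minus WT and HOM minus HET. The other gene end had -1.56 in HOM minus WT, -0.148 in HET minus WT and -1.41 in HOM minus HET. Borders of 200 bp had 0.636 in HOM minus WT, and those of islands over 500 bp -0.257 in HOM minus WT and -0.937 in HOM minus HET, with 1 call (Gata6). Bodies had -3.96 and -4.17 in HOM minus WT and HOM minus HET with 2000 bp around islands left out, -2.38 and -2.91 over the whole span, and -1.82 and -1.94 as the mean of the members' differences, an alternative chosen after seeing the data. The median stretch was 7049 bp below 20%, 15195 bp below 50% and 8106 bp over 5 CpGs. The cause of these shifts was not tested.

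No paired analysis was possible because the table holds 1 pair of columns per genotype, and for the same reason leaving out a sample was not run. With 9.18 to 12.9 reads per CpG, differences of a few points in regions with under 100 reads were not detectable.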
